A study of Mus musculus with 6 samples.

Results

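The Arp2/3 complex was examined through the 9 genes of its subunits, Actr2, Actr3, Arpc1a, Arpc1b, Arpc2, Arpc3, Arpc4, Arpc5 and Arpc5l, in Tregs (regulatory T cells) sorted from neonatal mouse skin and skin-draining lymph nodes (SDLN) and measured by bulk RNA-seq. The genes were taken by symbol from a table of 49315 genes and all 9 were found. They were selected on their measured levels in these same libraries, with the difference between skin and SDLN in view, so differences of members between the tissues are given as a description, and where calls of members are counted, nothing is read from the count.

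Both groups came from untreated Foxp3-GFP mice, which make a green fluorescent protein wherever the Treg transcription factor Foxp3 is active. The mice were 9 days old, and 3 mice were pooled into each sample. Skin or lymph nodes were digested, CD45+ cells were enriched on beads, and live CD45+ CD4+ Foxp3-EGFP+ cells were sorted, giving 3 skin Treg and 3 SDLN Treg libraries with the same genotype and the same batch number. The libraries carry the letters A to C within each tissue, and the sources do not tie a letter in skin to the same letter in SDLN, although both tissues may have come from the same mice. Since the labels give skin as the tissue of all 6 samples, the sample titles set the groups.

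The Arp2/3 complex starts a new actin filament on the side of an existing filament, which builds the branched networks that push the cell edge forward and shape the contact between a T cell and its target. Actr2 and Actr3 encode the actin-related proteins Arp2 and Arp3, which form the start of the daughter filament. The Arpc genes encode the scaffold that holds them on the mother filament. A pair of positions in the scaffold can each be filled by either of 2 closely related proteins, ARPC1A or ARPC1B at the first and ARPC5 or ARPC5L at the second, so complexes of different make-up exist. ARPC1B is the form that predominates in blood cells.

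The paralogs are alike enough that the stretch where each pair is most similar shows how reads of its genes can be told apart. Over the whole coding sequence of GENCODE transcripts, Arpc5 (151 residues) and Arpc5l (153 residues) were identical at 69.5% of aligned positions. Arpc1a (370 residues) and Arpc1b (376 residues) were identical at 71.5%. The longest run of identical bases was 21 in each pair. The most similar ungapped stretches of 90 bases are given 5′ to 3′ with the bases that differ in capitals, for coding positions 314 to 403 of Arpc5 and 320 to 409 of Arpc5l, and for positions 23 to 112 of both Arpc1 genes.
Arpc5: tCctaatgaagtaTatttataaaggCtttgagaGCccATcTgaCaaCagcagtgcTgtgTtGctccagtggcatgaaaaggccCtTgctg
Arpc5l: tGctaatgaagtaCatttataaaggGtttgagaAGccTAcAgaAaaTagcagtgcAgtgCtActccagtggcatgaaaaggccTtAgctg
Arpc1a: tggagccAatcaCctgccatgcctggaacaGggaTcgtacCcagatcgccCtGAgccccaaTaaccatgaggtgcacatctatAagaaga
Arpc1b: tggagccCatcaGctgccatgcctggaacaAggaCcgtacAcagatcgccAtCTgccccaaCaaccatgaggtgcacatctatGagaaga
The Arpc5 stretches differed at 15 of the 90 bases and the Arpc1 stretches at 10. No window of 100 bases of the transcripts of Arpc5, Arpc5l, Arpc1a, Actr2, Arpc2 or Arpc3 recurred in a transcript of another gene. For Actr3, 22.4% of such windows recurred elsewhere, mostly in the processed copy Gm8822, which held at most 419 counts in a library. The shares were 6.4% for Arpc1b, with Gm5637, and 8.5% for Arpc4, with Ttll3, so values of these 3 genes carry some uncertainty.

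On the build GRCm38, Arpc1a (5:145083830-145108761) and Arpc1b (5:145114215-145130705) lie on the plus strand of chromosome 5 with 5453 bases between them. Arpc5 lies at 1:152766542-152775597 and Arpc5l at 2:39005348-39015877, both on the plus strand. Arpc2 is at 1:74236084-74268209, Actr3 at 1:125392905-125435727, Arpc3 at 5:122391878-122414184, Arpc4 at 6:113378115-113390448 and Actr2 at 11:20062304-20112913. Exons of Arpc1b share 931 bases with Pdap1 on the other strand, exons of Arpc4 share 283 bases with Ttll3, and exons of Arpc5l share 62 bases with Rpl35 on the other strand and 62 with Wdr38. The strand setting of the counting is not given in the sources used here, so reads in those overlaps cannot be assigned with certainty.

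Because Arpc1a and Arpc1b are neighbours, their promoters are shown for comparison, from 250 bases before to 50 bases after the start, as the RefSeq table gives them on GRCm38.p6. Capitals mark the motif CCGGAAG of ETS factors in Arpc1a (chr5:145083619-145083918) and the GC box GGGCGG in Arpc1b (chr5:145114006-145114305), on either strand.
Arpc1a promoter: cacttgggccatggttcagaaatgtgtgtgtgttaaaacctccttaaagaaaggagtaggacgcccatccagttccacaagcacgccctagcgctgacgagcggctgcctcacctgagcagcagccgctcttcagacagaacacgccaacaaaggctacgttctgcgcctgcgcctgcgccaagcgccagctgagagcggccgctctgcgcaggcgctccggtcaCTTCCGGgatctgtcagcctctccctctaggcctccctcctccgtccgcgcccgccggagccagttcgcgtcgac
Arpc1b promoter: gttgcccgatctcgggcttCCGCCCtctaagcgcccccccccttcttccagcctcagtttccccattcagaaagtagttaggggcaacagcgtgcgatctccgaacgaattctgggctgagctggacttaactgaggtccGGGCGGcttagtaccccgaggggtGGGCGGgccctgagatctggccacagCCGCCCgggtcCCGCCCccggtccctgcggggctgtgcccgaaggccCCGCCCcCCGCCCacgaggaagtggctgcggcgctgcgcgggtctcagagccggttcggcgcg
The Arpc1a promoter held 1 ETS motif and 0 GC boxes, and that of Arpc1b held 7 GC boxes and 0 ETS motifs. The table covered 8 of the 9 members, all but Arpc5l. The ETS motif was in 5 of the 8 and in 8.9% of all 32851 promoters, and the GC box was in 6 of the 8 and in 35.7% of all. A TATA box, TATAAA, was in 0 of the 8 and in 13.6% of all. The CArG box of serum response factor was in 1, that of Arpc4, and in 1.6% of all. These motifs do not contain each other, and a match describes the letters only.

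The libraries differed in depth and content. Total counts were 3748669 to 11741784 in skin Tregs and 47243498 to 116158706 in SDLN Tregs, and 2911 to 5317 genes against 12397 to 13002 reached 1 CPM (count scaled to a library total of 1000000). The marker genes matched the sort only in part. Foxp3 measured 0, 28.1 and 0.1107 CPM in the skin libraries, while SDLN libraries had 105.1, 139.2 and 37.85 CPM. Cd4 measured 0, 158.5 and 0.2214 CPM in skin and 302.4 to 537.3 CPM in SDLN, and in skin A Cd3e was 0 and Lat 0.2668 CPM. Of the 10 T cell and Treg genes of the list, 5 were lower and 1, Ctla4, higher in every skin library, with a median log2 fold change of -1.08. Over all 13572 genes tested, 53.6% were lower and 2.39% higher in every skin library, with a median of -2.21. Cd3d was 198.2, 355.1 and 275.9 CPM in skin and 677.5 to 926.3 CPM in SDLN, Cd3g was 607.0 to 887.8 against 1132 to 1209 CPM, and Ctla4 was 1181, 1322 and 795.8 against 353.2 to 583.2 CPM. Il2ra, Ikzf2 and Cd2 overlapped, with Ikzf2 at 109.9, 2330 and 1458 CPM in skin and 864.9 to 1404 CPM in SDLN. The 10 T cell and Treg genes summed to 5518 to 8179 CPM in skin and 7865 to 8790 CPM in SDLN. Summed CPM of 18 macrophage and dendritic cell genes was 34720 to 60970 in skin against 443.2 to 778.6 in SDLN, with 15 of 17 tested genes higher in skin by edgeR's quasi-likelihood test, although Itgam was at 0 in all skin libraries and Cd14 and Itgax in 2 of them. Keratinocyte genes were at 0 in all skin libraries. In bulk samples, fewer cells of a type and less RNA per cell cannot be told apart.

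Summed over the 9 genes, Arp2/3 transcripts took a like share of the RNA in both tissues. The sum was 5893, 9981 and 10720 CPM in skin A, B and C and 8849, 8545 and 10130 CPM in SDLN A, B and C. The skin mean of 8864 ± 2599 CPM (SD, n = 3) was 0.966 times the SDLN mean of 9175 ± 842.1 CPM (SD, n = 3), and the groups overlapped. The skin libraries spread more widely, with A below every SDLN library and C above. Without skin A the ratio was 1.13, and leaving out each library in turn gave 0.865 to 1.13. The macrophage and dendritic cell sum above moved with tissue in the same libraries, and its part in the Arp2/3 values was not tested.

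Behind that sum, 5 members overlapped between the tissues, 1 lay higher in every skin library and 3 lay lower in every skin library. Of 13572 genes tested, 2.39% lay higher in every skin library and 53.6% lower. At an adjusted p below 0.05 in edgeR's quasi-likelihood test, 1.04% of genes were called higher in skin and 45.3% higher in SDLN. Of the members, 0 were called higher in skin and 1, Arpc5l, higher in SDLN. DESeq2 and limma voom gave the same counts, and at an unadjusted p below 0.05 edgeR also gave 0 and 1. The rule that chose the members used this contrast, so nothing is read from these counts. All 9 members passed the filter on low counts, and 7 were over 3 counts in every library.

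Of the scalings tried, upper quartile turned the sign of Actr3, Arpc1b, Arpc2 and Arpc4, and the others turned that of no member. Upper quartile scaling moved the median log2 fold change of the 1623 genes above 3 counts in every library from 0.28 to 6.82 and that of all tested genes from -2.21 to -1.24, and put 7 of the 9 members at 5.14 to 6.97, while Arpc1a (-0.72) and Arpc5l (-10.19) stayed negative. The other scalings moved that median to between 0.16 and 0.38. Fold changes given for the genes that follow are those under TMM scaling.

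**Figure D1:**
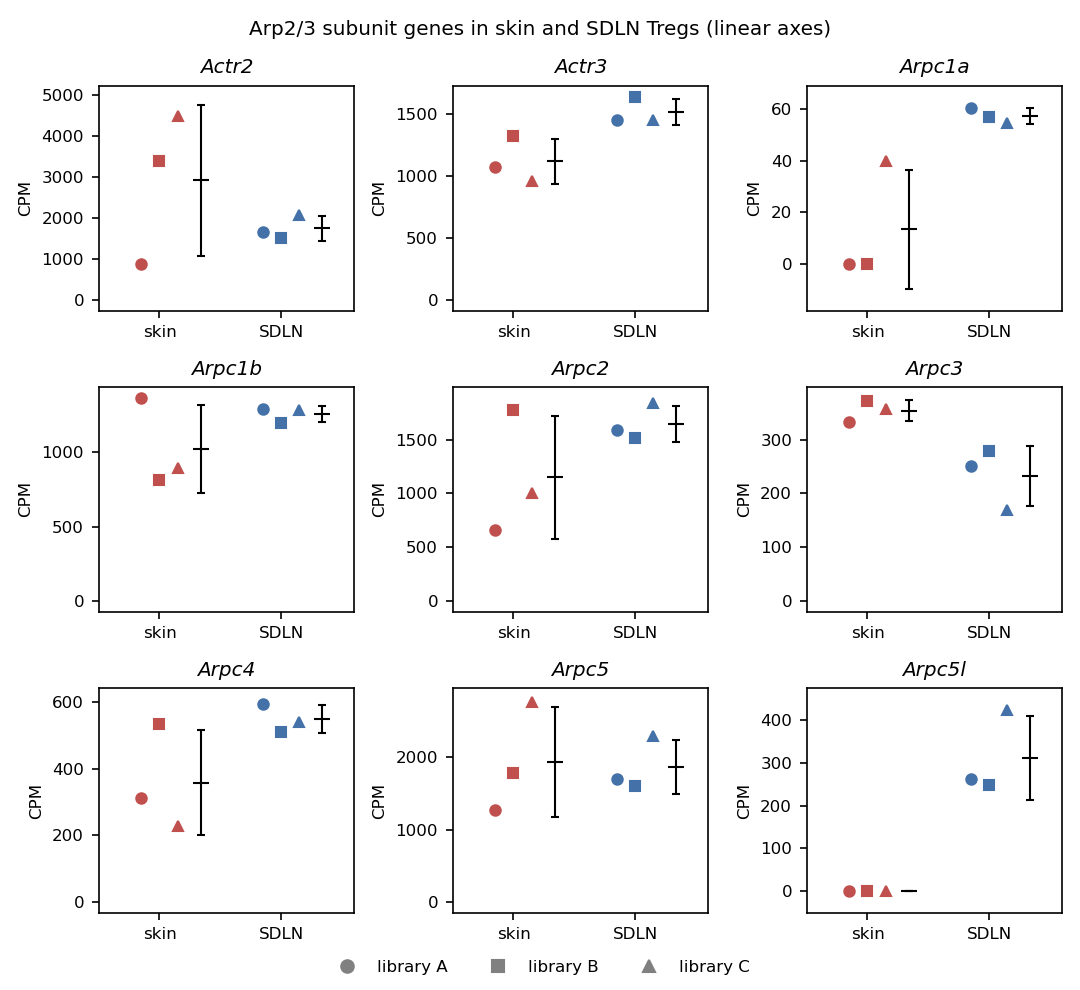
Level of each Arp2/3 gene in CPM on linear axes, with 1 point per library and the mean ± SD (n = 3) as a black bar beside the points. Arpc5l sits at or near 0 in all 3 skin libraries and between 247.9 and 424.5 CPM in SDLN, whereas Arpc5 overlaps between the tissues.

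Actr2 had the widest spread of the members within skin, with an SD of 1838 CPM. It was 882.2, 3377 and 4468 CPM in skin A, B and C, and 1659, 1495 and 2068 CPM in SDLN A, B and C. Skin A was the lowest of the 6 libraries and skin B and C the highest, so the groups overlapped. The fitted log2 fold change, skin over SDLN, was 0.89 (SE 0.751). It rested on single skin libraries, at 0.14 without skin C and 1.19 without skin A.

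Actr3, which encodes the partner of Arp2 in the filament start, was 1074, 1323 and 961.9 CPM in skin and 1454, 1644 and 1458 CPM in SDLN, so every skin library lay below every SDLN library. The log2 fold change was -0.45 (SE 0.301). Its near relative Actr3b, no member but a gene of the fixed lists, was at 0 in all skin libraries and at 15.28, 8.407 and 7.091 CPM in SDLN.

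The core scaffold gene Arpc2 was 664.0, 1779 and 1007 CPM in skin and 1586, 1516 and 1838 CPM in SDLN. Arpc4, whose product pairs with ARPC2 in the core of the complex, was 313.2, 533.8 and 226.8 CPM in skin and 594.2, 510.7 and 540.6 CPM in SDLN. In both genes skin B lay within the SDLN range while skin A and C lay below it. The log2 fold changes were -0.47 (SE 0.521) for Arpc2 and -0.64 (SE 0.518) for Arpc4.

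Arpc3, a peripheral subunit next to Arp3, was the member that lay higher in every skin library. It was 333.5, 371.8 and 356.5 CPM in skin and 250.1, 278.2 and 169.6 CPM in SDLN. The skin mean was 1.52 times the SDLN mean, with a log2 fold change of 0.63 (SE 0.562). The skin libraries lay close together, with an SD of 19.32 CPM against 56.36 CPM in SDLN.

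Arpc1b, the blood cell form of its position, was 1363, 816.2 and 894.2 CPM in skin and 1290, 1195 and 1284 CPM in SDLN. Skin A was the highest of the 6 libraries and skin B and C were the lowest, with a log2 fold change of -0.37 (SE 0.261). Its paralog Arpc1a was far lower and uneven in skin, at 0, 0 and 40.1 CPM in A, B and C. SDLN libraries had 60.6, 57.0 and 54.5 CPM. Arpc1a was thus lower in every skin library, but through counts of 0 in A and B and 362 counts in C. Its log2 fold change of -1.77 (SE 2.79) is no firm measure of size. The fitted value was -14.51 without skin C, -4.85 with limma voom and -9.97 with the column letter as a block.

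As a share of the counts of both Arpc1 genes, Arpc1a made up 4.29% in skin C (95% Wilson interval 3.88 to 4.74). In SDLN it made up 4.49%, 4.55% and 4.07%, so the skin library that held Arpc1a had the SDLN proportion. In skin A and B the share was 0 of 5108 and 0 of 9584 counts. Counting error alone allows up to 0.0587% and 0.0313%. Skin C lay far above both limits, which leave out the spread between libraries. Absence from some skin libraries was common for genes of that abundance. Of 2148 genes with 40 to 80 CPM in SDLN, 66.4% were at 3 counts or fewer in at least 2 skin libraries.

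Arpc5 and Arpc5l, fill the other exchangeable position. Arpc5 was 1264, 1780 and 2762 CPM in skin and 1692, 1600 and 2294 CPM in SDLN, and the groups overlapped with a log2 fold change of 0.14 (SE 0.528). Its sign turned in 4 alternatives. The value was -0.55 without skin C and -0.14 where every library needed at least 10 counts. It was -0.04 with reads drawn down to the smallest total and -0.03 with the column letter as a block. Arpc5l had 0, 1 and 2 counts in skin A, B and C, against 30627, 18046 and 20056 counts in SDLN, or 263.7, 247.9 and 424.5 CPM. Over pooled libraries this was 0.122 CPM against 291.0 CPM, a ratio of 2380 (95% interval 814 to 11500, counting error only). The ratio rests on 3 skin counts in all, and its interval leaves out the spread between libraries, so it is no firm measure of size.

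When reads were drawn at random so that every library had about the total of the shallowest, Arpc5l kept 996, 922 and 1652 counts in SDLN against 0, 1 and 1 in skin. Such a draw matches read totals only, and the part of other differences between the libraries was not tested. Of 784 genes with 200 to 500 CPM in SDLN, 2.81% had 3 counts or fewer in each skin library.

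Within its pair, Arpc5l made up 13.5%, 13.4% and 15.6% of counts in SDLN and 0%, 0.00478% and 0.00801% in skin. For the 0 of 4737 counts in skin A, counting error alone allows up to 0.0633%. Corrected for merged exon length, the SDLN share was 7.71% ± 0.735 (SD, n = 3). Arpc5l has 4498 bases of merged exons and Arpc5 has 2276. The transcripts used for the coding sequences run the other way, at 1339 bases for Arpc5l and 1914 for Arpc5. The share per length thus depends on which transcript is present, which was not tested. Adding both paralogs gave 1264, 1780 and 2763 CPM in skin and 1955, 1848 and 2718 CPM in SDLN, a ratio of means of 0.89, so most of the pair's transcripts came from Arpc5 in either tissue.

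**Figure D2:**
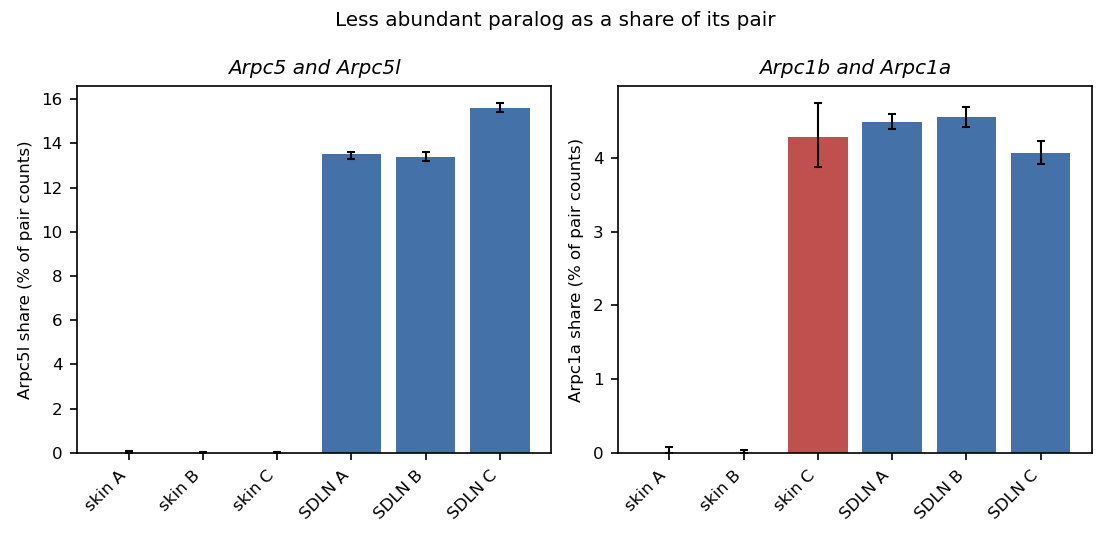
Share of the less abundant paralog in the counts of its pair, by library, with 95% Wilson intervals that cover counting error only. Arpc5l is near 0% in all skin libraries and 13.4% to 15.6% in SDLN, whereas Arpc1a is at 0% in skin A and B and at 4.29% in skin C, within the SDLN range.

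Levels of different genes were compared as counts per kilobase of merged exons, scaled to the same sum over all genes in each library. On that scale Arpc5 and Arpc2 led in SDLN, with 27.6% ± 2.7 and 27.5% ± 0.0727 (SD, n = 3) of the summed level of the 9 genes, and these neighbours did not differ beyond their spread. Actr2 at 11.3% ± 0.773 and Actr3 at 11.2% ± 1.73 came next and did not differ beyond theirs. Arpc1b at 8.37% ± 0.649 and Arpc4 at 8.07% ± 0.967 were likewise close. Arpc3 held 2.92% ± 0.945, Arpc5l 2.32% ± 0.478 and Arpc1a 0.765% ± 0.103, and of these Arpc1a lay apart.

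In skin, Arpc5 led in A and C, with 30.8% and 38.0% of the summed level, and in B it held 25.1% against 28.1% for Arpc2. Actr2 held 9.39%, 20.8% and 26.9% in skin A, B and C against 10.6% to 12.1% in SDLN. For every gene but Arpc5l, the SD of this share was larger in skin than in SDLN. With the longest transcript in place of merged exons, 6 members changed rank in SDLN. Arpc3 has 2762 bases of merged exons but a longest transcript of 899. Arpc1b has 5115 bases of merged exons, while the transcript used for its coding sequence has 1394. The shares and the order of the members therefore hold for merged exon length only, and a shorter length would raise the share of Arpc1b.

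**Figure D3:**
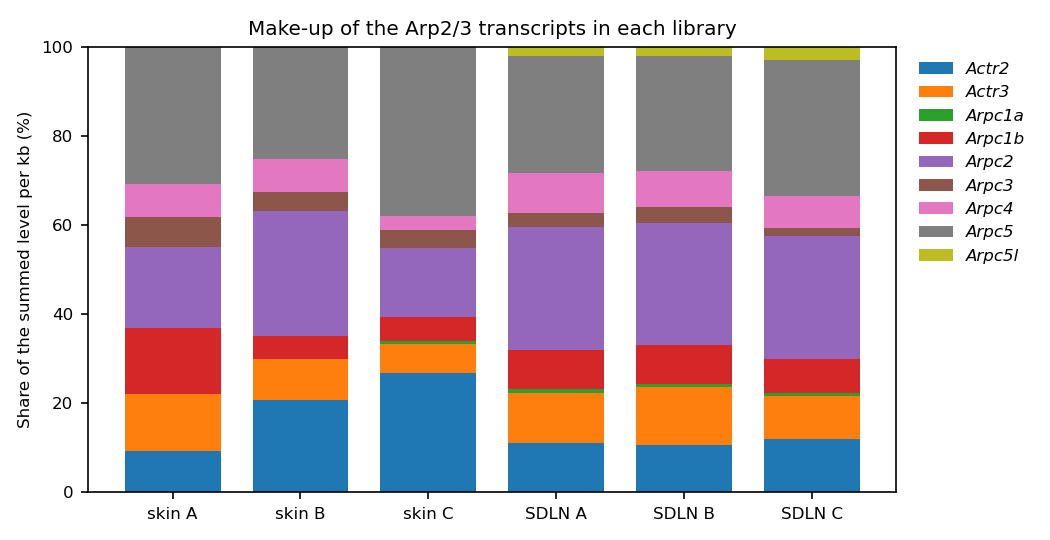
Share of each gene in the summed level per kilobase of the 9 Arp2/3 genes, as a stacked bar for each library. Arpc5 and Arpc2 are the largest blocks in the SDLN means, while Actr2 ranges from 9.39% to 26.9% among the skin libraries.

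The genes whose CPM over the 6 libraries followed the Arp2/3 sum most closely were found by the root mean square difference of log2 values after centring, among 1615 candidates. They were Ywhaq at 0.0948, Pdia3 at 0.158, Sh3bgrl3 at 0.176, Cfl1 at 0.18 and Saraf at 0.183. Cfl1, which encodes the filament-severing protein cofilin, was 2334, 3342 and 2813 CPM in skin and 2895, 2713 and 2991 CPM in SDLN.

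Among 80 other actin pathway genes, fixed in 6 lists, the calls lay mostly toward SDLN, as over all genes. Of 76 tested, 1 was called higher in skin and 20 higher in SDLN, against 1.04% and 45.3% of all genes. Of the 20, 18 had 3 counts or fewer in each skin library, beside 94.4% of all 6142 genes called higher in SDLN. The median log2 fold change was -0.51, beside -0.45 over the members, -2.21 over all tested genes and 0.28 over the 1623 genes above 3 counts in every library.

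Nucleation promoting factors, which switch the complex on, had 7 of 22 tested genes called higher in SDLN, beside 45.3% of all tested genes. The 7 were Wasl, Cttn, Wipf2, Jmy, Nckap1, Washc3 and Washc5, each at the floor of 3 counts or fewer in skin. The abundant Hcls1, a cortactin relative of blood cells, was 438.6, 107.2 and 416.7 CPM in skin and 424.5, 437.9 and 393.7 CPM in SDLN. Was, the blood cell activator mutated in Wiskott-Aldrich syndrome, was 1112, 130.7 and 63.43 CPM in skin and 269.4, 298.0 and 161.8 CPM in SDLN. Nckap1l, of the WAVE complex, was found in skin B alone, at 428.4 CPM against 259.9 to 338.1 CPM in SDLN. These 3 genes thus varied widely among skin libraries and did not pass the test.

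Among inhibitors and debranching factors, Coro1c was called higher in skin and Pick1 higher in SDLN, of 7 tested. Coro1c, a coronin that binds filaments and takes part in branch turnover, was 1228, 577.6 and 341.0 CPM in skin and 210.6, 260.2 and 214.9 CPM in SDLN. It rose by 1.47 on the log2 scale (SE 0.47, adjusted p = 0.0462 by edgeR's quasi-likelihood test), higher in 3 of 3 skin libraries. The call held in 2 of 16 alternatives, over which the adjusted p ran from 0.00195 to 0.355. Of the 6 libraries, leaving out any but skin C ended it, at adjusted p of 0.0771 without skin A, 0.0878 without skin B, 0.244 without SDLN A, 0.146 without SDLN B and 0.174 without SDLN C. Coro1a, the coronin typical of T cells, was 1594, 1018 and 317.2 CPM in skin and 2186, 1983 and 1221 CPM in SDLN and did not pass, nor did Gmfg, a debranching factor.

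Of actin and its monomer and filament turnover genes, 2 of 16 were called higher in SDLN, beside 45.3% of all tested genes. These were Pfn2 and Twf2, both at the floor in skin. Of the 16, 4 lay lower in every skin library, beside 53.6% of all tested genes. Summed, with Actb the most abundant, the 16 genes were 37680 to 48990 CPM in skin and 37290 to 48690 CPM in SDLN. Actb was 16630, 26270 and 31700 CPM in skin and 25060, 15760 and 19990 CPM in SDLN. Tmsb4x, which encodes the monomer-binding thymosin beta 4, had means of 5255 and 5359 CPM, and Pfn1, which encodes profilin, 4583 and 5886 CPM. These 3 did not pass the test. Of the formins, which build unbranched filaments, 4 of 8 were called higher in SDLN, beside 45.3% of all tested genes. They were Diaph2, Diaph3, Inf2 and Fmnl3, each at the floor in skin. The abundant Fmnl1 was 215.0, 185.3 and 244.0 CPM in skin and 200.1 to 324.0 CPM in SDLN, Diaph1 was 4.535, 72.9 and 200.4 CPM against 57.17 to 83.7, and Fhod1 was 0, 37.3 and 113.7 CPM against 6.265 to 9.986, and none of them passed. Of 8 other actin-related proteins, Actr5 and Actr3b were called higher in SDLN, both at the floor in skin. The abundant ones, which did not pass, were Actl6a with means of 289.6 CPM in skin and 139.4 CPM in SDLN, Actr1a with 244.9 and 157.1 CPM, and Actr10 with 49.16 and 69.89 CPM.

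**Figure D4:**
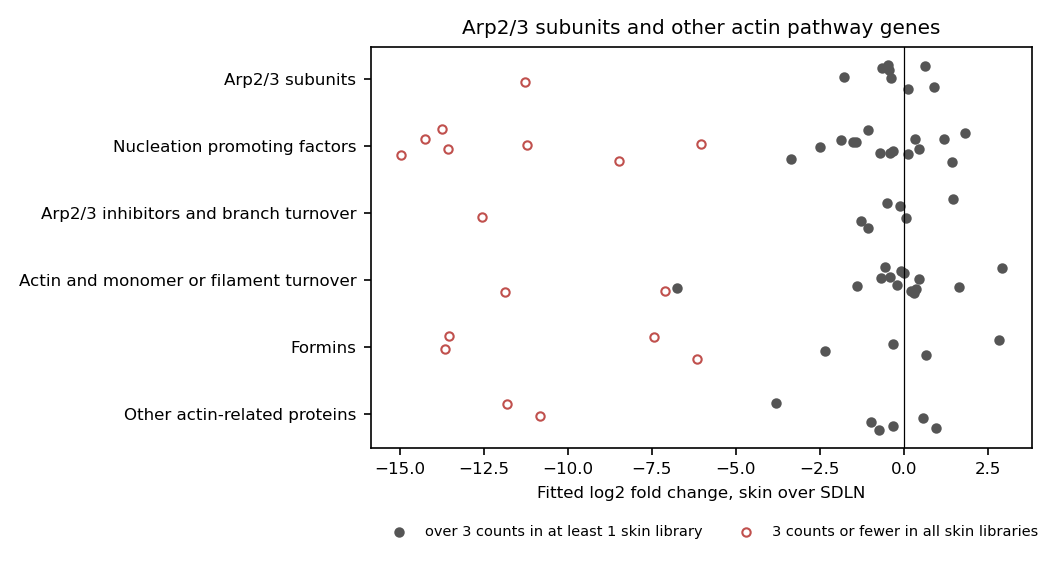
Fitted log2 fold change, skin over SDLN, of each tested Arp2/3 subunit and each tested gene of 5 other actin lists, with open points for genes with 3 counts or fewer in each skin library, whose fitted values have no fixed size. Genes found in skin lie on both sides of 0, and Arpc5l is the 1 subunit among the open points.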

How the data were processed

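Per the labels and the study's methods, the authors trimmed reads with Trimmomatic 0.36, mapped them to GRCm38 with STAR 2.5.2b and counted exon reads per gene with featureCounts of Subread 1.5.2. The deposited table holds whole-number counts for each Ensembl gene, not normalized, and no molecular identifiers are described, so intervals cover counting error only. The annotation release and strand setting are not given in the sources used here. Symbols, positions and exon lengths came from GENCODE M21, on GRCm38.

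CPM is the count scaled to a library total of 1000000. By counting error alone, a count of 0 allows 3 counts (the floor). Genes were kept with filterByExpr and tested with edgeR 4.0.16 (TMM, robust quasi-likelihood F test, tissue as the only term) in R 4.3.3, with Benjamini-Hochberg adjustment over all 13572 genes and a threshold of 0.05. P-values measure the spread between these 3 and 3 pooled samples. Alternatives were other scalings, DESeq2 1.42.0, limma 3.58.1 voom, other filters, a block by column letter, libraries drawn down to the smallest total by binomial sampling of reads, and leaving out each library.

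The members, the actin and marker lists and the tests were chosen with earlier results of these data known. Beside the 9 members, the text names genes of the lists that were called and over the floor in all skin libraries, the 3 most abundant of a list, and genes called at the floor, apart from 1 list, and the 5 genes closest to the summed CPM. That list of the 6 actin lists enters the totals only, and its genes are not reported here. Authors' own comparison values were not used.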

Additional observations from a re-analysis of the deposited data

How the results depend on the processing

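Of 268 values recomputed under alternatives, 225 stayed within the spread or within 1.5 times the reported count. The number of genes called higher in skin, 141, became 404 with DESeq2, 77 with no filter, 61 at the stricter threshold of 0.01 and 81 where every library needed at least 10 counts, and 71 to 324 without 1 library. The number called higher in SDLN, 6142, became 3928 at the smallest total and 9 where every library needed at least 10 counts, and 4983 to 7787 without 1 library. Members called higher in skin were 0 to 1 without 1 library, with Actr2 called without skin A, and nothing is read from calls of members. Members called higher in SDLN were 1 to 2, with Arpc1a added without skin C, and 0 with at least 10 counts in every library, which removes Arpc5l. Other actin genes called higher in skin, 1 in the report, were 2 with DESeq2, 0 to 1 without 1 library, and 0 under TMMwsp, upper quartile, library size only, DESeq2 size factors in edgeR, voom, no filter, at least 10 counts, the smallest total and the threshold of 0.01. Those called higher in SDLN, 20 in the report, were 18 to 27 without 1 library and 0 where every library needed at least 10 counts. The difference in the Arpc5 share of its pair, 7.71 percentage points per length, was 14.2 as raw counts. The cause of the other changes was not tested.

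The column letters are not tied to the replicate numbers of the labels, and libraries of the same letter did not deviate together from their group means (r across tested genes of 0.05, -0.01 and 0.09 for A, B and C). A replicate block by letter, added after seeing the data, gave 61 genes higher in skin, 5633 higher in SDLN, 0 and 1 members, and 0 and 20 other actin genes. The skin libraries are shallower and held 2911 to 5317 genes at 1 CPM, against 12397 to 13002 in SDLN. Of genes with 40 to 80 CPM in SDLN, 66.4% had 3 counts or fewer in at least 2 skin libraries. The cause of such low counts was not tested. They limit statements on genes at the floor, and 3 samples a group leave wide intervals.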
